A study of Mus musculus with 12 samples.

Results

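The genes of the translation initiation factors (Eif symbols) and translation elongation factors (Eef symbols) were examined across 3 Marf1 genotypes of mouse oocytes. All symbols of the deposited gene table that begin with Eif or Eef and then a digit were taken. Eif4enif1, Eif4e1b and the Eif2ak kinases were left out, and 58 of the 24254 listed genes remained, 49 Eif and 9 Eef. Marf1 encodes an endoribonuclease of oocytes that is needed for female meiosis. RNA was sequenced from fully grown oocytes at the germinal vesicle stage, that is, before meiosis resumes, with 4 libraries of 80 oocytes for each genotype and 150 bp paired reads. The genotypes were wild type (WT), a Marf1 gene trap (GTMut) and a Marf1 mutant named for D272 (D272Mut). All mice were C57BL/6 and 3 weeks old, and 46 h before collection each had received 5 IU of PMSG, which makes follicles grow. The sources used here give neither the zygosity of the mutants nor the mice behind each library, so p-values measure the spread between libraries, which may be technical. The promoter or cells that drive the trap, and any batch, are likewise not given. The sources differ on the material and the library method. The series' design text and the sample source name oocytes, while the treatment text of the samples has ovaries lysed. The design text gives RNA extraction with an RNeasy kit before NEBNext libraries, while the sample protocol gives Smart-seq2 amplification before the same NEBNext step.

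Initiation begins when eIF1, eIF1A, eIF3 and the initiator tRNA carried by eIF2 bind the small ribosomal subunit. The eIF4 factors recruit that subunit to the capped end of a messenger RNA, where it scans for the start codon. The eIF4E-binding proteins (4E-BPs) block cap-dependent recruitment, eIF2B recharges eIF2 with GTP, and eEF1 and eEF2 move tRNAs through the elongating ribosome. A growing oocyte stores many messenger RNAs in a dormant form and translates them on schedule as meiosis proceeds, and by the stage studied here its own transcription has largely stopped.

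The deposited values are FPKM, the fragments of a transcript scaled to its length and to the library's mapped fragments. FPKM values and shares are given with the SD over 4 libraries, and log2 fold changes, on the log2(FPKM + 1) scale, with the SE. Marf1 itself was 25.8 ± 0.625 FPKM (SD, n = 4) in wild type, 1.43 ± 0.130 in GTMut and 53.1 ± 1.02 in D272Mut. Absolute depth is unknown, but the spacing of low values gave a 2.25-fold range of relative depth over the 12 libraries, namely 0.613 to 0.944 (WT), 0.555 to 1 (GTMut) and 0.444 to 0.837 (D272Mut). All 12 listed oocyte markers were detected in every genotype, with sums between 13610 and 13797 FPKM for WT, between 11475 and 12171 for GTMut and between 10910 and 11003 for D272Mut. Gdf9 had the highest means, with 5592, 4544 and 4319 FPKM in WT, GTMut and D272Mut. Nobox was higher in both mutants, with means of 193, 289 and 366 FPKM. Zar1 was higher in GTMut only (1839, 1950 and 1629 FPKM) and Figla in D272Mut only (24.5, 16.3 and 25.9 FPKM). The means of the other listed oocyte markers were lower in both mutants. A list of 12 granulosa and cumulus genes summed to 41.9 to 46.7, 137 to 150 and 130 to 132 FPKM, and 5, 4 and 6 of the 12 reached 1 FPKM. Nr5a2, the highest of them, had means of 26.5, 134 and 118 FPKM. The other 11 genes summed to 15.1 to 19.4 FPKM (WT), 9.26 to 10.6 (GTMut) and 11.8 to 14.4 (D272Mut). Cyp19a1 was the highest of these, with means of 11.7, 4.90 and 6.53 FPKM in WT, GTMut and D272Mut. Inha had 2.06, 1.24 and 2.17 FPKM, and Ptx3 had 0, 0.0657 and 0. A list of 12 genes of other ovarian cells summed to 23.1 to 25.8, 15.2 to 15.98 and 15.6 to 17.7 FPKM, and 3, 3 and 4 of the 12 reached 1 FPKM. Most of each sum was Pecam1, with means of 20.7, 11.4 and 11.7 FPKM in WT, GTMut and D272Mut. In such bulk values less RNA per oocyte cannot be told apart from fewer intact oocytes, and every change below is relative to the rest of the library.

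Of the 58 factors, 56 reached 1 FPKM in at least 1 library and were tested. Eef1a2, the elongation factor isoform of muscle and neurons, was listed at 0 in every library, and the Y-linked Eif2s3y stayed below 1 FPKM. In GTMut against WT, 45 of 56 factors passed the test, 19 higher and 26 lower, which is 80.4% where 77.5% of all 12980 tested genes passed (limma, two-sided, Benjamini-Hochberg adjusted p under 0.05). Genes called higher made up 38.3% and genes called lower 39.2% of all tested genes. In D272Mut against WT 43 factors passed, 18 higher and 25 lower, or 76.8% beside a background of 75.7% (36.3% higher and 39.5% lower). The factor genes were thus called about as often as the tested genes as a whole. Both comparisons use the same WT libraries and are not independent.

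On the log2(FPKM + 1) scale, changes of at least 2-fold were found for 11 of 56 factors in GTMut (19.6% against a background of 28.9%) and 9 of 56 in D272Mut (16.1% against 23.8%). Whether these shares differ from the background was not tested. Of these, 9 rose and 2 fell in GTMut, where the background was 19.3% and 9.61%, and 8 rose and 1 fell in D272Mut, where it was 17.9% and 5.9%. The median log2 fold change of the factors was -0.13 in GTMut and -0.16 in D272Mut, beside -0.02 and -0.05 for all tested genes. Between the mutants, 14 factors passed (25%, with a background of 39.6%), 7 in each direction (background 19.3% higher and 20.2% lower), and Eif5a2 alone differed by 2-fold, being lower in D272Mut (1.79% beside 3.36%, of which 1.55% higher and 1.81% lower). These counts set the scale for the individual genes, which follow by role. The counts within each role cover few genes and are to be read against the same backgrounds.

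**Figure D1:**
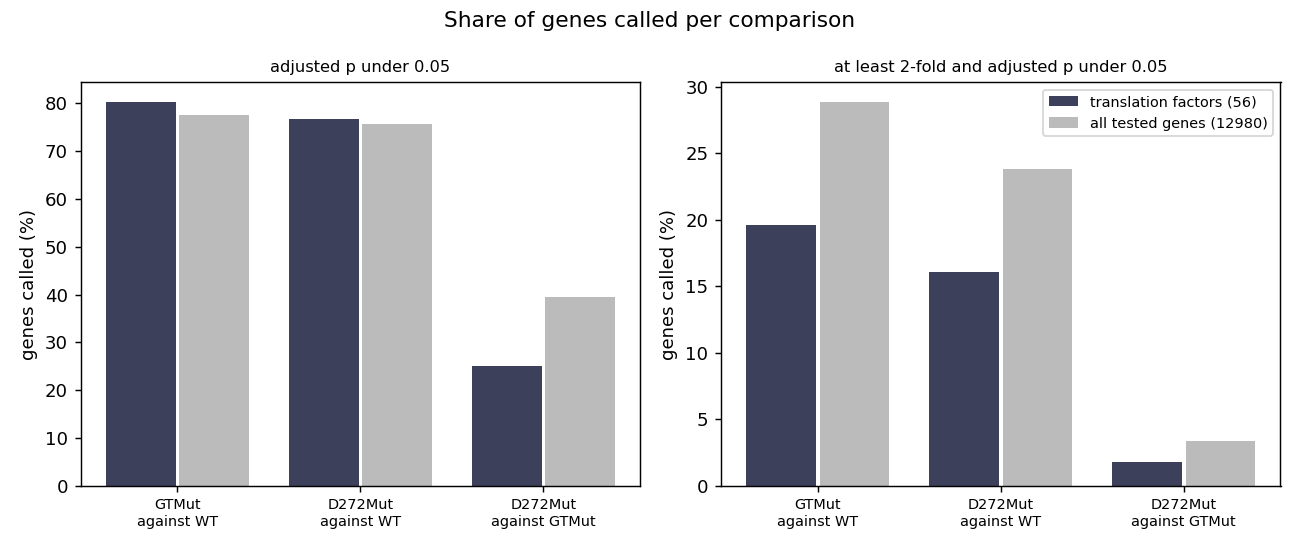
Share of genes passing the test in each comparison (y axis, percent) for the 56 translation factors and for all 12980 tested genes, with no fold limit on the left and a limit of 2-fold on the right. The 2 bars of GTMut against WT are close on the left (80.4% and 77.5%) and further apart on the right (19.6% and 28.9%).

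**Figure D2:**
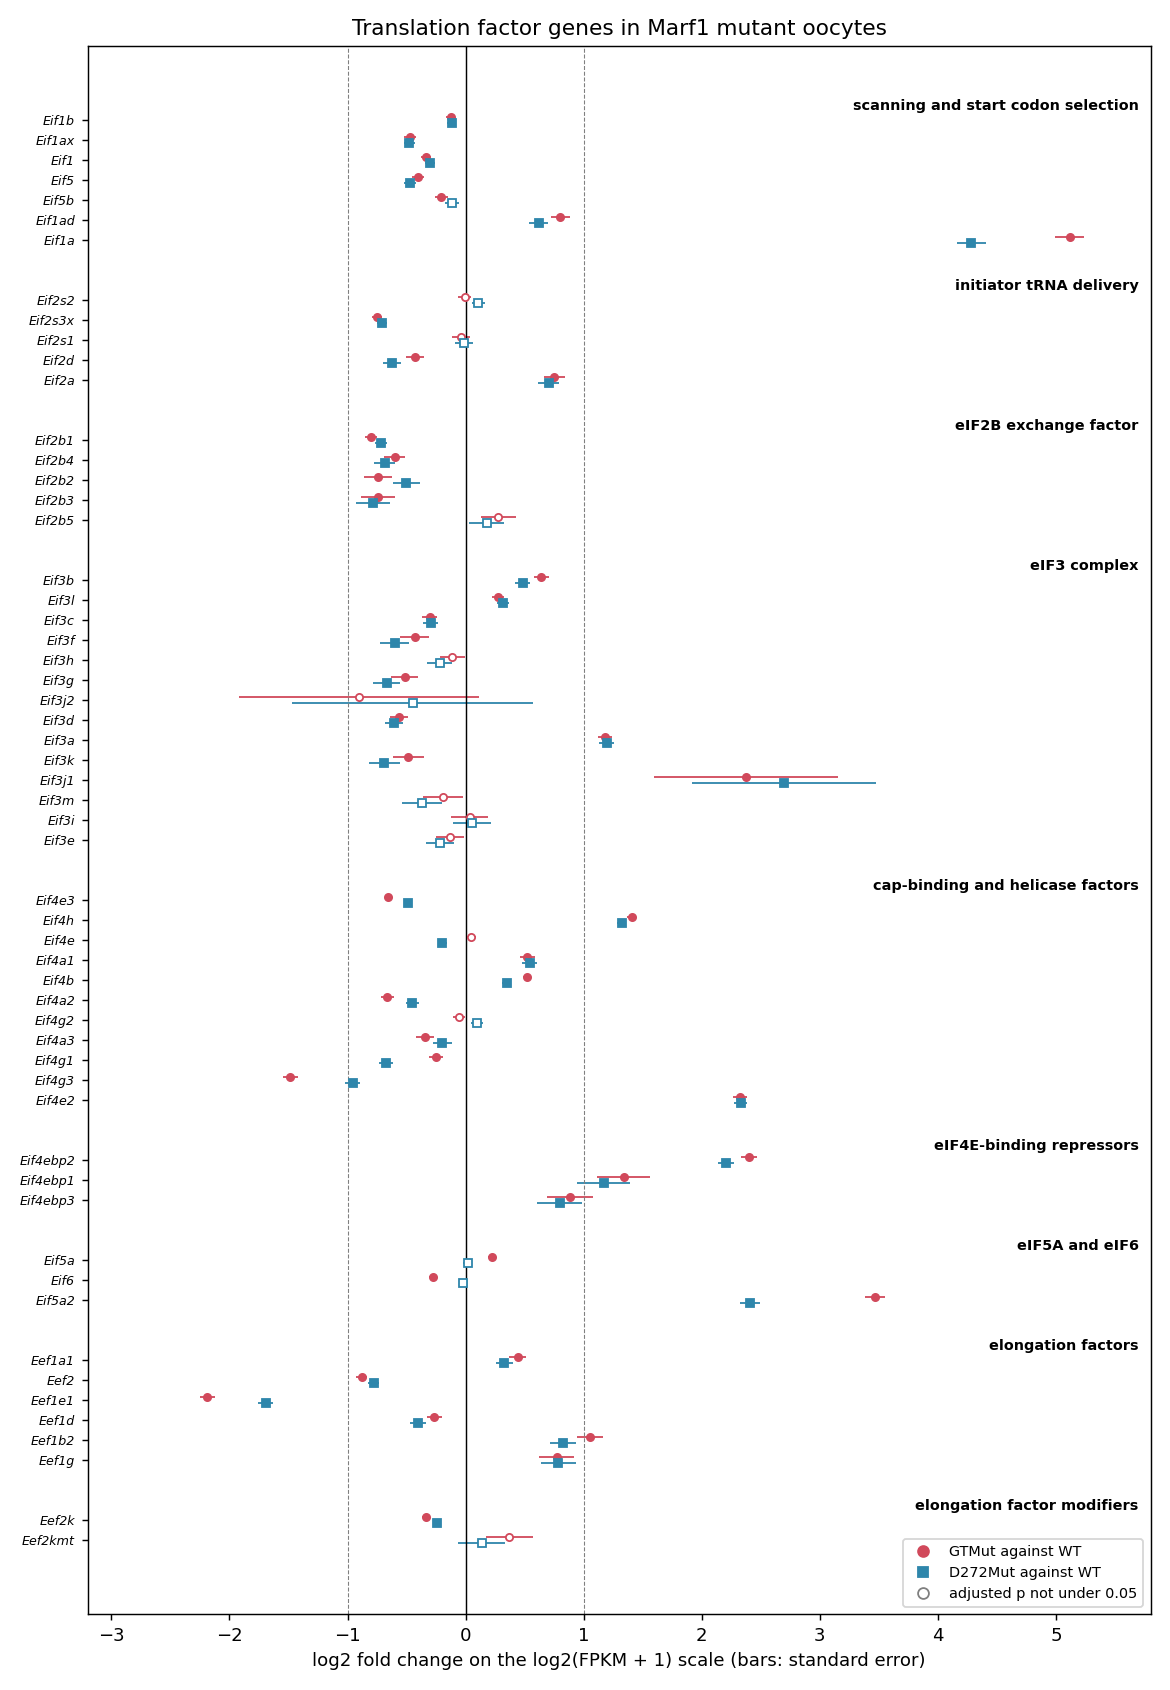
Log2 fold change (x axis, log2(FPKM + 1) scale, bars are SE) of each tested factor against WT, by role, with circles for GTMut, squares for D272Mut and open symbols for an adjusted p not under 0.05. Eif1a lies farthest to the right at 5.11 in GTMut and 4.28 in D272Mut, and Eef1e1 farthest to the left at -2.19 and -1.69.

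Several of the largest changes were in a minor paralog beside a major one. Such a contrast can be read only where the reads tell the copies apart. A matching stretch of the coding sequence is therefore shown for the eIF5A pair. One is also shown for the eIF4A pair, whose 2 genes changed by less than 2-fold. The sequences are from GENCODE M21 transcripts (GRCm38, the assembly of mm10), 5′ to 3′ on the coding strand. Each stretch has 90 bases, and capitals mark the bases that differ within the pair. The eIF5A pair differs at 24 of them and the eIF4A pair at 14.
Eif5a: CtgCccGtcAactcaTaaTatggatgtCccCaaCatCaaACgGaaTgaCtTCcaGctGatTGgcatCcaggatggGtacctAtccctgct
Eif5a2: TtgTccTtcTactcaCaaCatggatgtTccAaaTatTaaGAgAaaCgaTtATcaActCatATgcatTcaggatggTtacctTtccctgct
Eif4a1: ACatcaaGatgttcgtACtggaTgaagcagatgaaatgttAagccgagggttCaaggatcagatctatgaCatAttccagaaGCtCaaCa
Eif4a2: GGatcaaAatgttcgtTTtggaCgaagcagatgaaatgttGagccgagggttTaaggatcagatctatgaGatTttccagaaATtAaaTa
The Eif5a gene lies at chr11:69916714-69921958 on the minus strand, Eif5a2 at chr3:28781276-28798846 on the plus strand, Eif4a1 at chr11:69666936-69672423 on the minus strand and Eif4a2 at chr16:23107444-23114136 on the plus strand. Over the whole coding sequence Eif5a and Eif5a2 were 73.1% identical with no identical run longer than 14 bases, and Eif4a1 and Eif4a2 were 78.1% identical with a longest run of 20 bases. Eif1ax and Eif1a were 85.6% identical (longest run 28 bases) and Eif1 and Eif1b 81.1% (25 bases), all shorter than a read of 150 bp.

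Among the factors of scanning and start codon selection, Eif1a had the largest log2 fold change of all translation factors in both mutants on the log2(FPKM + 1) scale. It encodes eIF1A, which opens the small subunit for scanning, and lies at chr18:46597701-46616456, while its near copy Eif1ax is X-linked. Eif1a was listed at 2.34, 1.497, 1.34 and 1.12 FPKM in the WT libraries, 91.6, 87.3, 87.2 and 81.6 in GTMut and 44.8, 58.3, 46.4 and 45.3 in D272Mut. The 3 genotypes did not overlap, and D272Mut lay between WT and GTMut. Its log2 fold changes were 5.11 ± 0.12 (SE) in GTMut (adjusted p = 7.54e-14) and 4.28 ± 0.12 in D272Mut (adjusted p = 5.84e-13), and on the plain FPKM scale the means were 55.2 and 30.9 times that of WT. Between the mutants the log2 difference of D272Mut from GTMut was -0.83 ± 0.12 (adjusted p = 1.14e-04).

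Eif1ax moved the other way, with 187 ± 10.9 FPKM in wild type, 135 ± 7.09 in GTMut and 134 ± 4.05 in D272Mut, so that Eif1a went from 0.841% ± 0.317 of the summed eIF1A FPKM in wild type to 39.2% ± 0.831 in GTMut and 26.6% ± 2.04 in D272Mut. The sum itself was 189 ± 10.6 FPKM in wild type, 222 ± 10.5 in GTMut and 183 ± 9.94 in D272Mut. Of the 7 tested genes of this role, 2 rose, 5 fell and 0 did not pass in GTMut (median -0.20), and 2 rose, 4 fell and 1 did not pass in D272Mut (median -0.12).

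Eif1b, the most abundant gene of the role, makes a close relative of eIF1, the factor that guards start codon choice. Measured levels were 273, 275, 275 and 286 FPKM in the WT libraries, 249.8, 255, 244 and 267 in GTMut and 266, 248, 244 and 264 in D272Mut. The mutant libraries lay just under the WT libraries, with log2 fold changes of -0.13 ± 0.04 (adjusted p = 0.00758) and -0.12 ± 0.04 (adjusted p = 0.0117). Both calls were lost under quantile normalization (adjusted p = 0.543 and 0.346), and the D272Mut call also under median-ratio rescaling (adjusted p = 0.0964). Eif1 fell, with log2 fold changes of -0.34 and -0.30, and Eif5, which makes the GTPase activator of eIF2, fell with -0.40 and -0.47. Eif5b, whose product joins the ribosomal subunits, fell in GTMut (-0.20, adjusted p = 0.00473) and had -0.11 in D272Mut (adjusted p = 0.0822), where it passed without WT replicate 2 (adjusted p = 0.0288) and under quantile normalization (adjusted p = 0.0134). Eif1ad, a gene with an eIF1A-like domain that is not a core factor, rose by 0.80 and 0.62 on the log2 scale, and its exons overlap those of Banf1 on the opposite strand.

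The factor that carries the initiator tRNA, eIF2, has 3 subunits, and their genes did not move alike. Eif2s3x, the X-linked gene of the gamma subunit that binds tRNA and GTP, fell from 44.6 ± 0.621 FPKM in wild type to 26.1 ± 0.736 in GTMut and 26.9 ± 1.13 in D272Mut, with log2 fold changes of -0.75 and -0.71 (adjusted p = 5.86e-10 and 1.35e-09). Eif2s2, the beta subunit gene and the most abundant of the role, was listed at 108, 111, 118 and 100.5 FPKM in the WT libraries, 111, 108, 109 and 107 in GTMut and 129.8, 109, 114 and 119 in D272Mut. All 3 groups overlapped, and the log2 fold changes of -0.01 ± 0.05 and 0.11 ± 0.05 did not pass (adjusted p = 0.924 and 0.0936), although the second passed under median-ratio rescaling, under quantile normalization, without D272Mut replicate 2 and without WT replicate 3 (adjusted p = 0.0178, 0.0239, 0.033 and 0.0372). Eif2s1, the alpha subunit that stress kinases phosphorylate, had -0.04 and -0.01 and did not pass either, but was called lower in both under quantile normalization (adjusted p = 0.00683 and 0.0177).

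The role also holds Eif2a and Eif2d, which can deliver initiator tRNA without eIF2. Eif2a rose from 7.78 ± 0.897 FPKM in wild type to 13.8 ± 0.971 in GTMut and 13.3 ± 1.68 in D272Mut (log2 fold changes 0.75 and 0.70), and Eif2d fell from 10.3 ± 0.941 FPKM in wild type to 7.34 ± 0.241 in GTMut and 6.30 ± 0.594 in D272Mut (-0.43 and -0.62). Their exons overlap those of Serp1 and Rassf5 on the opposite strand. Of the 5 tested genes, 1 rose, 2 fell and 2 did not pass in GTMut, and the counts were the same in D272Mut.

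Most genes of eIF2B, the exchange factor that recharges eIF2, were lower in the mutants. Of its 5 subunit genes 4 fell and none rose in either mutant. Among all tested genes 39.2% were called lower in GTMut and 39.5% in D272Mut. The medians were -0.74 and -0.68 beside -0.02 and -0.05 for all tested genes. Whether these 5 genes differ from the background as a set was not tested. Eif2b1, the alpha subunit gene and the most abundant, was listed at 71.4, 71.4, 72.4 and 72.0 FPKM in the WT libraries, 40.0, 40.0, 39.1 and 44.6 in GTMut and 46.6, 40.1, 42.1 and 44.7 in D272Mut. Every mutant library lay below every WT library, and the log2 fold changes were -0.80 ± 0.05 (SE) in GTMut (adjusted p = 4.17e-09) and -0.72 ± 0.05 in D272Mut (adjusted p = 1.65e-08).

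The beta subunit gene Eif2b2 had means of 22.3, 12.98 and 15.4 FPKM in WT, GTMut and D272Mut. Those of the gamma subunit gene Eif2b3 were 7.73, 4.26 and 4.02 FPKM, and those of the delta subunit gene Eif2b4 were 24.3, 15.7 and 14.8 FPKM. Their log2 fold changes in GTMut were -0.74, -0.74 and -0.60, and in D272Mut -0.50, -0.79 and -0.68. Exons of Eif2b4 overlap those of Snx17 on the opposite strand. Eif2b5, the gene of the catalytic epsilon subunit, had 3.24 ± 0.969 FPKM in wild type, 4.06 ± 0.630 in GTMut and 3.70 ± 0.269 in D272Mut. Its log2 fold changes of 0.28 ± 0.15 and 0.18 ± 0.15 did not pass (adjusted p = 0.107 and 0.296), and the first passed without WT replicate 4 (0.39, adjusted p = 0.0248).

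The genes of eIF3, the largest initiation complex and the scaffold that holds the other factors on the small subunit, split in direction. Of 14 tested genes, 4 rose, 5 fell and 5 did not pass in GTMut (median -0.16), with equal counts in D272Mut (median -0.26). Eif3a, whose product is the core subunit around which eIF3 assembles, rose most among the genes other than Eif3j1, which is treated separately. Its values were 11.7, 10.3, 12.1 and 11.8 FPKM in the WT libraries, 27.7, 28.0, 27.8 and 25.6 in GTMut and 27.5, 30.2, 26.2 and 26.3 in D272Mut. Every mutant library was at least 25.6 FPKM and no WT library exceeded 12.1. Fitted log2 fold changes were 1.18 ± 0.06 (SE) in GTMut (adjusted p = 3.92e-10) and 1.19 ± 0.06 in D272Mut (adjusted p = 4.26e-10).

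Eif3b, the other core subunit and the most abundant gene of the complex, was listed at 32.6, 33.7, 32.5 and 39.4 FPKM in the WT libraries, 53.8, 59.7, 53.8 and 50.5 in GTMut and 47.9, 47.6, 48.8 and 50.01 in D272Mut. Both mutants lay above WT without overlap, with log2 fold changes of 0.64 ± 0.06 (adjusted p = 4.17e-07) and 0.48 ± 0.06 (adjusted p = 8.71e-06). Eif3l rose less (0.27 and 0.32), and its call in GTMut was lost under quantile normalization (adjusted p = 0.0766).

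The genes that fell were Eif3c, Eif3d, Eif3f, Eif3g and Eif3k, in both mutants. Eif3d, whose product can itself bind the cap of some messenger RNAs, had 14.2 ± 0.801 FPKM in wild type, 9.26 ± 0.729 in GTMut and 8.99 ± 0.848 in D272Mut, with log2 fold changes of -0.57 and -0.61, and an antisense gene shares a near-identical stretch with it. Eif3g, an RNA-binding subunit, had log2 fold changes of -0.52 and -0.67, and Eif3k, a peripheral subunit, -0.48 and -0.69. Eif3f (-0.43 and -0.60) and Eif3c (-0.30 and -0.30) completed the group. Eif3e, Eif3h, Eif3i and Eif3m did not pass, with log2 fold changes from -0.19 to 0.03 in GTMut and from -0.37 to 0.06 in D272Mut. Under quantile normalization Eif3e, Eif3h and Eif3m were called lower in both mutants, which made 8 of 14 lower in each. Without D272Mut replicate 1, Eif3h was called lower in D272Mut (-0.34, adjusted p = 0.00102), and Eif3m was called lower there without WT replicate 2, WT replicate 4 or D272Mut replicate 4 (adjusted p = 0.0286, 0.0479 and 0.0289). No single eIF3 gene passed between the mutants.

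Eif3j1 and Eif3j2, both annotated as genes of the loosely bound j subunit, could not be read apart. Their coding sequences aligned with 0 substitutions and 6 gap columns, an identical run of 781 bases, and the deposited table gives both the same interval, chr2:122028578-122118386, although GENCODE places Eif3j2 on chromosome 18. Eif3j1 was listed at 0.400, 19.5, 0.684 and 18.7 FPKM in the WT libraries, 25.5, 36.9, 42.0 and 15.02 in GTMut and 27.0, 49.5, 45.1 and 24.99 in D272Mut. Within each genotype 2 libraries were high and 2 low, and Eif3j2 was high where Eif3j1 was low, at 24.4, 4.64, 25.9 and 3.96 FPKM in the WT libraries, 18.04, 2.60, 0.0516 and 20.7 in GTMut and 20.4, 0.931, 4.91 and 21.7 in D272Mut. The sum of both was steady, with 24.8, 24.2, 26.6 and 22.6 FPKM in WT, 43.5, 39.5, 42.1 and 35.7 in GTMut and 47.4, 50.5, 50.1 and 46.7 in D272Mut.

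The summed values did not overlap between genotypes. Their log2 fold change was 0.69 ± 0.06 in GTMut (adjusted p = 2.05e-07) and 0.96 ± 0.06 in D272Mut (adjusted p = 6.24e-09), and D272Mut exceeded GTMut by 0.27 (adjusted p = 0.00391). Taken singly, Eif3j1 passed at 2.38 and 2.70 (adjusted p = 0.013 and 0.00637), and Eif3j2 did not pass at -0.90 and -0.45 (adjusted p = 0.431 and 0.706). The single values are part of the counts above, and Eif3j1 is 1 of the 11 and of the 9 genes changed at least 2-fold.

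**Figure D3:**
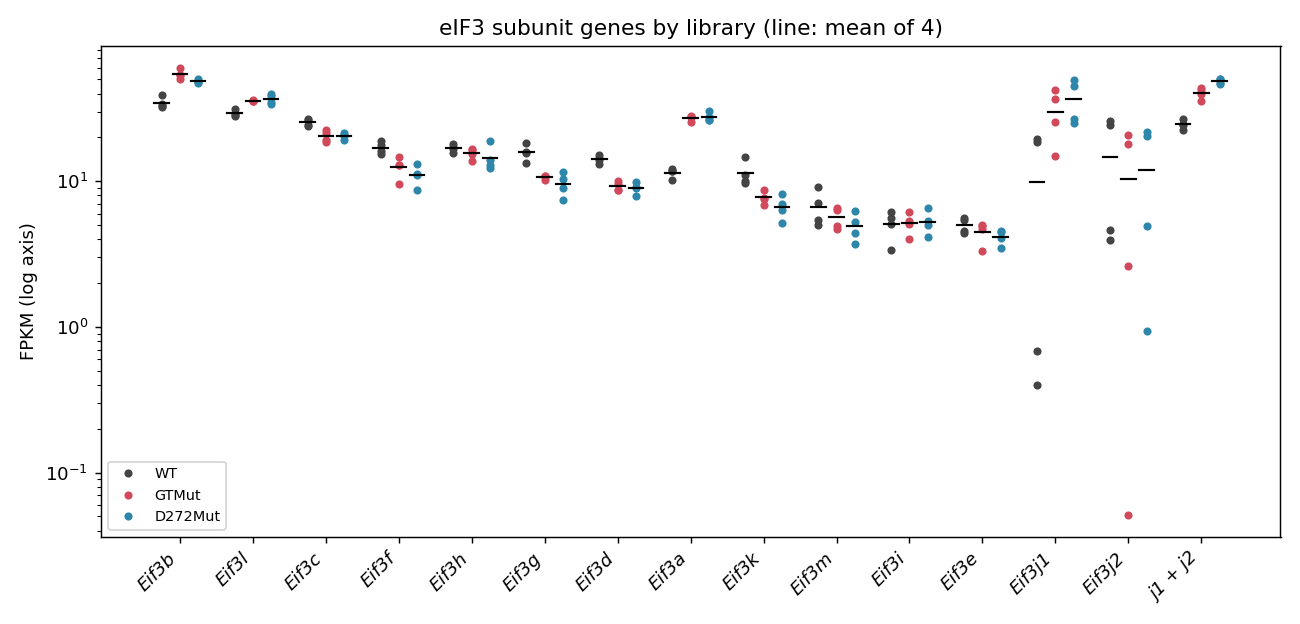
FPKM (y axis, log scale) of each eIF3 gene in the 12 libraries, 1 point per library and a line at the mean of each genotype, with the sum of Eif3j1 and Eif3j2 at the right. Points of Eif3j1 and Eif3j2 scatter widely within a genotype (0.400 to 19.5 FPKM for Eif3j1 in WT), while their sum lies at 24.5 ± 1.64 in wild type, 40.2 ± 3.42 in GTMut and 48.7 ± 1.87 in D272Mut (mean ± SD).

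The cap-binding and helicase genes changed in both directions. Between the mutants 7 of the 11 tested genes passed, 4 higher and 3 lower in D272Mut. The background there was 39.6% (19.3% higher and 20.2% lower). In GTMut against WT 4 rose, 5 fell and 2 did not pass (background 38.3% higher and 39.2% lower). In D272Mut against WT 4 rose, 6 fell and 1 did not pass (background 36.3% and 39.5%). Whether these shares differ from the background was not tested. Eif4e2 makes 4EHP, a cap-binding protein that does not bind eIF4G and can repress translation. Its levels were 6.90, 8.03, 6.68 and 6.87 FPKM in the WT libraries, 37.5, 41.8, 38.02 and 41.3 in GTMut and 39.5, 40.5, 39.6 and 39.4 in D272Mut. Mutant libraries lay between 37.5 and 41.8 FPKM, far above WT, and overlapped each other. On the log2 scale the changes were 2.32 ± 0.06 (SE) in GTMut (adjusted p = 1.15e-13) and 2.33 ± 0.06 in D272Mut (adjusted p = 1.37e-13).

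Eif4e3, a cap-binding relative, had the highest FPKM of Eif4e, Eif4e2 and Eif4e3. Eif4e1b, an eIF4E relative left out by the choice of symbols, stood higher, with a mean of 1017 FPKM in wild type. Eif4e3 fell from 276 ± 7.84 FPKM in wild type to 175 ± 3.18 in GTMut and 197 ± 3.57 in D272Mut (log2 fold changes -0.65 and -0.49), and 1 other annotated gene shares a near-identical stretch with it. Eif4e, the main cap-binding factor, had 111 ± 1.94 FPKM in wild type, 115 ± 3.65 in GTMut and 96.6 ± 4.52 in D272Mut. It did not pass in GTMut (0.05, adjusted p = 0.261), though it did under quantile normalization (0.11, adjusted p = 0.0107), and it fell in D272Mut (-0.20, adjusted p = 3.44e-04). Shares were taken of the summed FPKM of Eif4e, Eif4e2 and Eif4e3, which leaves out Eif4e1b. The share of Eif4e2 was 1.81% ± 0.161 in wild type, 12.03% ± 0.759 in GTMut and 11.9% ± 0.284 in D272Mut. The share of Eif4e3 was 70.1% ± 0.563, 53.1% ± 0.823 and 59.1% ± 0.751.

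Eif4h, a cofactor that stimulates the eIF4A helicase, rose in both mutants and had the highest mean of the role over all 12 libraries, although Eif4e3 was higher in WT. It was listed at 152, 155, 158 and 167 FPKM in the WT libraries, 409, 436, 422 and 413 in GTMut and 379, 406, 418 and 382 in D272Mut. No mutant library fell below 379 FPKM and no WT library exceeded 167. The log2 fold changes were 1.41 ± 0.04 (SE) in GTMut (adjusted p = 6.36e-13) and 1.32 ± 0.04 in D272Mut (adjusted p = 1.50e-12). Eif4b, the related cofactor, rose by 0.52 and 0.35 on the log2 scale, from 71.8 ± 1.91 FPKM in wild type to 104 ± 2.98 in GTMut and 91.7 ± 2.72 in D272Mut.

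The helicase genes themselves moved in opposite directions. Eif4a1 rose from 87.5 ± 6.66 FPKM in wild type to 126 ± 4.88 in GTMut and 128 ± 11.5 in D272Mut (log2 fold changes 0.52 and 0.54), while Eif4a2 fell from 50.2 ± 3.29 FPKM in wild type to 31.3 ± 1.60 in GTMut and 36.4 ± 1.42 in D272Mut (-0.66 and -0.45). The share of Eif4a2 in the pair went from 36.5% ± 2.92 in wild type to 19.9% ± 0.990 in GTMut and 22.2% ± 0.965 in D272Mut, with sums of 138 ± 5.64, 157 ± 5.31 and 164 ± 12.9 FPKM. Eif4a2 overlaps exons of Rfc4 on the opposite strand, and 1 annotated pseudogene shares a near-identical stretch with Eif4a1. Eif4a3, a helicase of the exon junction complex and not of initiation, fell in GTMut (-0.34, adjusted p = 0.00113). Its call in D272Mut (-0.20, adjusted p = 0.0341) was lost without WT replicate 1, 2 or 3 or D272Mut replicate 2, 3 or 4 (adjusted p = 0.0679, 0.0711, 0.0663, 0.0745, 0.116 and 0.0788). Under median-ratio rescaling 5 genes of the role were called lower in D272Mut, against 6 as reported.

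Eif4g3, one of the eIF4G scaffolds that bridge the cap and the ribosome, fell most in this role. Measured levels were 23.99, 23.6, 25.1 and 24.5 FPKM in the WT libraries, 8.22, 8.52, 7.37 and 8.09 in GTMut and 11.1, 13.3, 12.2 and 11.7 in D272Mut. The 3 genotypes did not overlap, with D272Mut between GTMut and WT. Fitted log2 fold changes were -1.48 ± 0.06 (SE) in GTMut (adjusted p = 3.30e-11) and -0.96 ± 0.06 in D272Mut (adjusted p = 4.91e-09), and the latter came just past the 2-fold limit without D272Mut replicate 2. D272Mut was higher than GTMut by 0.53 ± 0.06 (adjusted p = 1.86e-05).

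Its paralog Eif4g1 was lowest in D272Mut instead, with 30.4 ± 1.78 FPKM in wild type, 25.4 ± 1.69 in GTMut and 18.6 ± 1.02 in D272Mut (log2 fold changes -0.25 and -0.68). Eif4g2, whose product lacks the eIF4E-binding site, had -0.05 and 0.09 and passed in neither, although it passed in GTMut under quantile normalization (-0.14, adjusted p = 0.0233) and in D272Mut under median-ratio rescaling (0.14, adjusted p = 0.0247). Eif4g3 took 23.3% ± 0.403 of the summed eIF4G FPKM in wild type, 9.93% ± 0.858 in GTMut and 14.4% ± 0.869 in D272Mut.

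All 3 genes of the 4E-BPs, the repressors that bind eIF4E and are switched off by mTOR phosphorylation, rose in both mutants, with median log2 fold changes of 1.34 and 1.17. Eif4ebp2 was the most abundant. Its values were 15.9, 13.8, 14.4 and 14.9 FPKM in the WT libraries, 84.9, 81.8, 77.3 and 84.6 in GTMut and 64.3, 79.8, 77.2 and 66.4 in D272Mut. Mutant libraries were at least 64.3 FPKM and WT libraries at most 15.9. On the log2 scale the changes were 2.40 ± 0.07 (SE) in GTMut (adjusted p = 6.60e-13) and 2.21 ± 0.07 in D272Mut (adjusted p = 1.98e-12).

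Eif4ebp1 was listed at 1.71, 4.23, 3.95 and 3.14 FPKM in the WT libraries, 9.02, 12.5, 6.44 and 10.9 in GTMut and 7.34, 7.64, 7.15 and 11.6 in D272Mut. The groups of mutant libraries overlapped each other but not WT, with log2 fold changes of 1.34 ± 0.22 (adjusted p = 8.95e-05) and 1.17 ± 0.22 (adjusted p = 3.16e-04), the latter 0.97 without WT replicate 1. Eif4ebp3, the least abundant, had 1.13 ± 0.506 FPKM in wild type, 2.87 ± 0.701 in GTMut and 2.65 ± 0.639 in D272Mut (log2 fold changes 0.88 and 0.80). On the plain FPKM scale its means were 2.54 and 2.35 times that of WT. A readthrough gene annotated across Eif4ebp3 shares its sequence. The summed FPKM of the 4E-BP genes was 0.173 ± 0.00763 times that of Eif4e in WT, 0.827 ± 0.0659 times in GTMut and 0.858 ± 0.0441 times in D272Mut. This ratio compares RNA levels per length and says nothing of the proteins or their phosphorylation.

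**Figure D4:**
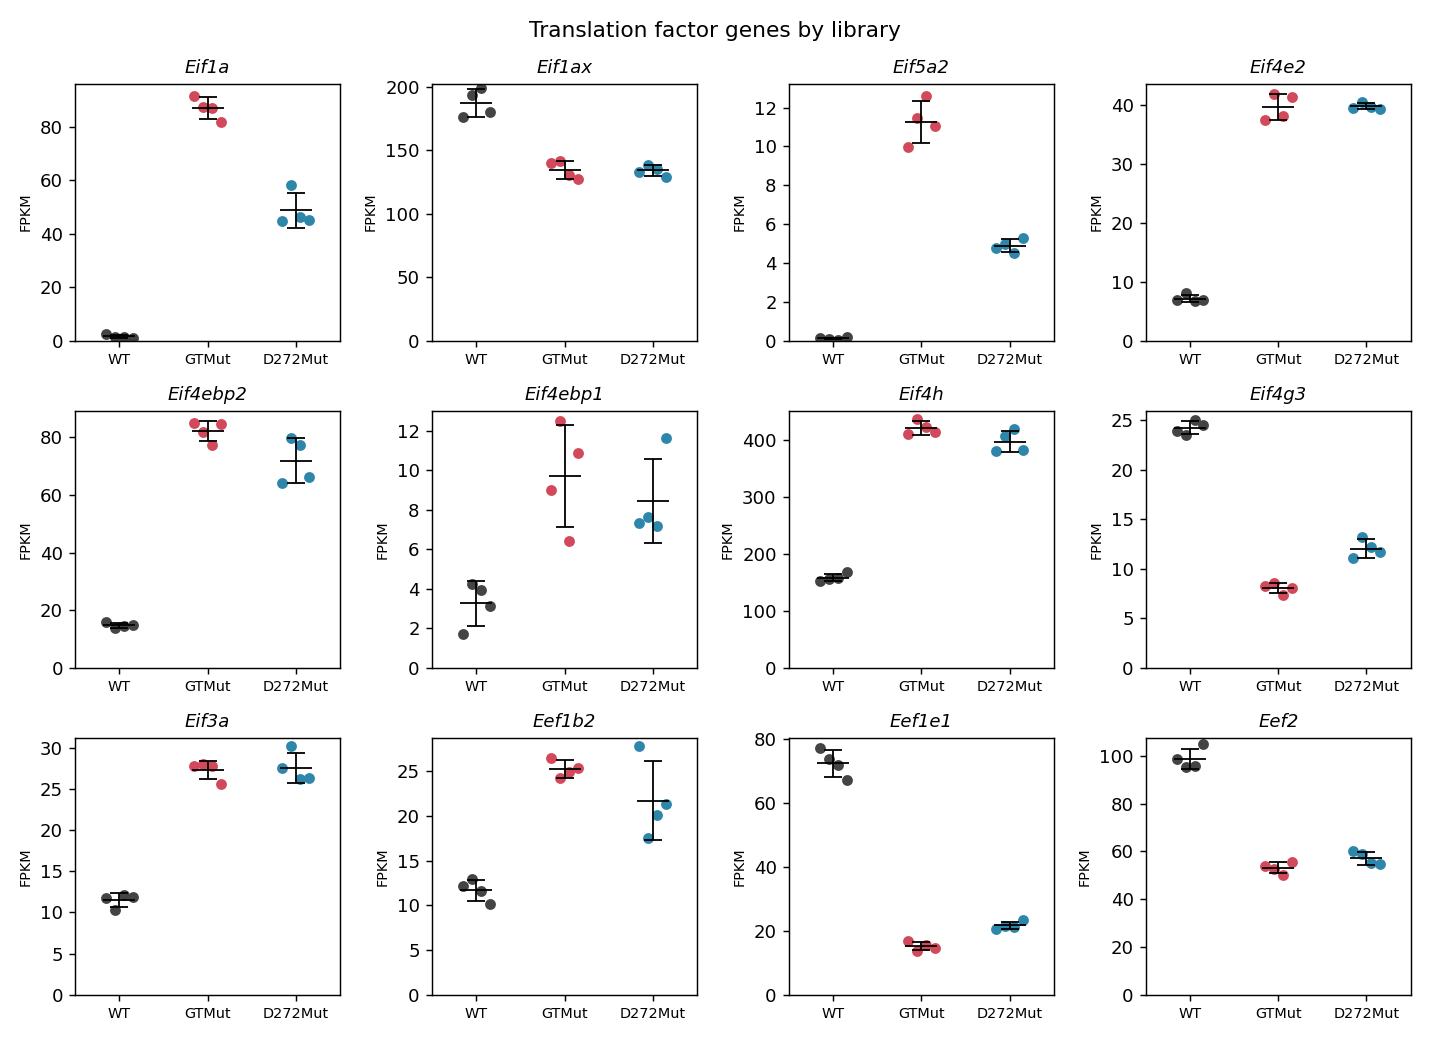
FPKM (y axis, linear scale from 0) of 12 translation factor genes in each library of the 3 genotypes, 1 point per library, with a line at the mean and bars for the SD of 4 libraries. Eif1a, Eif5a2, Eif4e2 and Eif4ebp2 lie near the axis in WT and well above it in both mutants, while Eif4g3 and Eef1e1 are highest in WT.

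Eif5a2, the minor gene of eIF5A, was close to undetected in WT and present in both mutants. eIF5A carries the amino acid hypusine and helps the ribosome through difficult peptide bonds. Eif5a2 was listed at 0.115, 0.0999, 0.0496 and 0.164 FPKM in the WT libraries, 9.97, 11.4, 12.6 and 11.1 in GTMut and 4.75, 5.00, 4.51 and 5.27 in D272Mut. The genotypes did not overlap, and D272Mut again lay between WT and GTMut. The log2 fold changes were 3.47 ± 0.09 (SE) in GTMut (adjusted p = 1.15e-13) and 2.41 ± 0.09 in D272Mut (adjusted p = 6.87e-12). These values understate the change of so low a gene, since the ratio of the means was 105 in GTMut and 45.6 in D272Mut. Between the mutants the log2 difference of D272Mut from GTMut was -1.06 ± 0.09 (adjusted p = 6.22e-07).

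Eif5a, the major gene, was listed at 211, 209, 215 and 211 FPKM in the WT libraries, 238, 257, 236 and 259.6 in GTMut and 209, 219, 211 and 217 in D272Mut. GTMut lay above the other groups, which overlapped, with log2 fold changes of 0.23 ± 0.04 (adjusted p = 5.82e-05) and 0.02 ± 0.04 (adjusted p = 0.698). Eif5a2 made up 0.0507% ± 0.0224 of the pair in wild type, 4.36% ± 0.485 in GTMut and 2.23% ± 0.117 in D272Mut, and Eif5a accounted for the rest. Eif6, which keeps the large ribosomal subunit from joining too early, fell in GTMut (-0.28, adjusted p = 7.12e-06) and had -0.02 in D272Mut (adjusted p = 0.545). For both genes the mutants differed from each other, by -0.21 for Eif5a and 0.25 for Eif6 (adjusted p = 4.54e-04 and 9.19e-05).

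**Figure D5:**
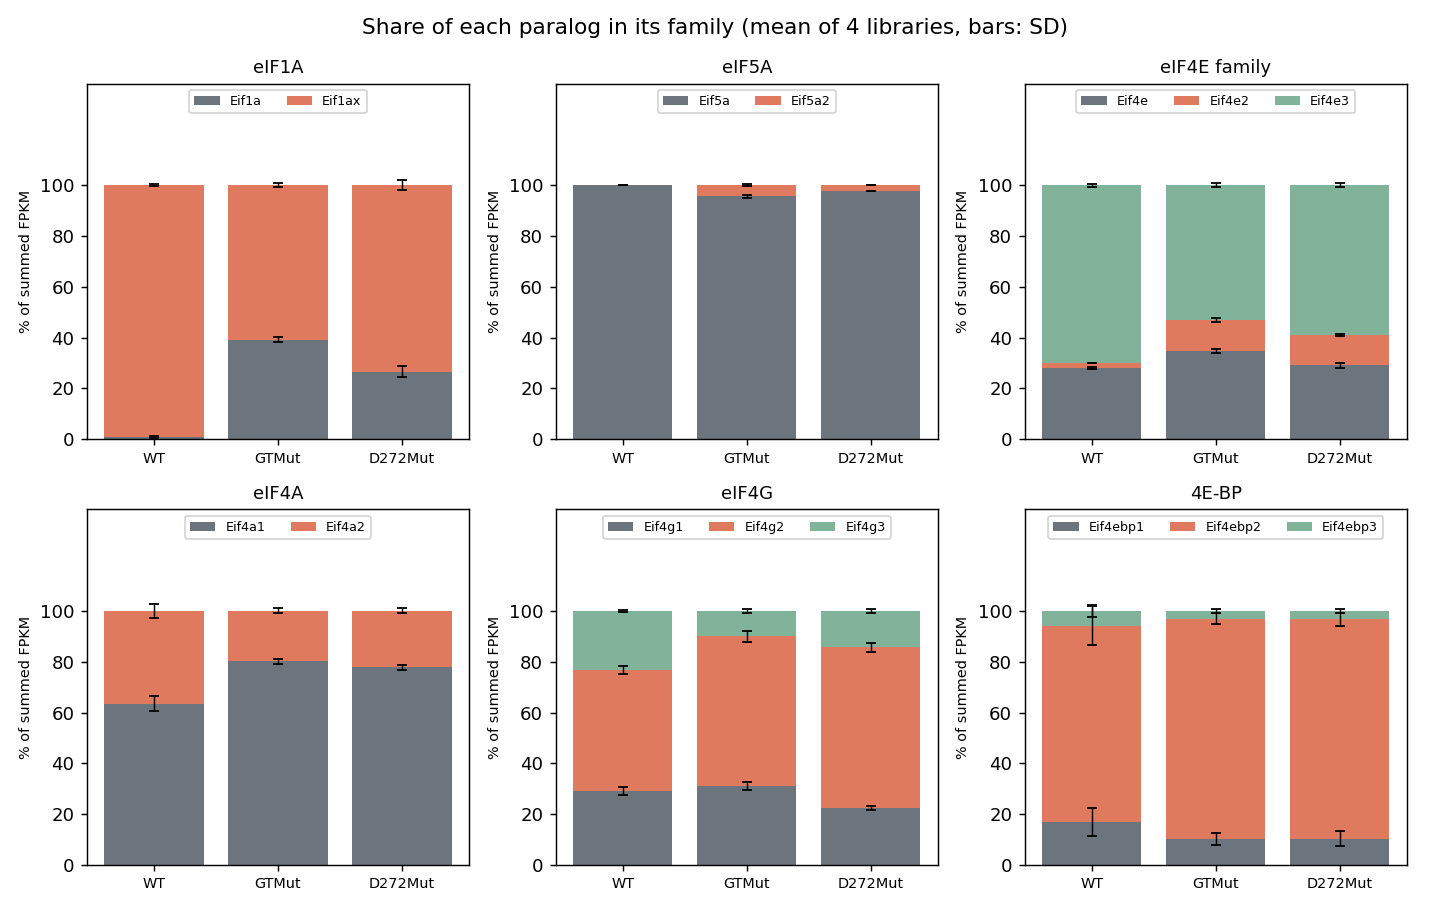
Share of each paralog in the summed FPKM of its family (y axis, percent, mean of 4 libraries) by genotype, with bars at the top of each segment for the SD of that paralog's share. Eif1a goes from 0.841% in WT to 39.2% in GTMut, Eif4a2 shrinks from 36.5% to 19.9%, and Eif5a2 stays a thin segment of at most 4.36%. The eIF4E family is drawn from Eif4e, Eif4e2 and Eif4e3, without Eif4e1b.

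Of the 6 tested elongation factor genes 3 rose and 3 fell in each mutant, and the changes divided the eEF1 complex. Eef1a1, whose product brings each tRNA to the ribosome, had the highest FPKM of all 58 genes in WT. Its levels were 464, 438, 439.9 and 439.6 FPKM in the WT libraries, 595, 608, 627 and 592 in GTMut and 636, 477, 521 and 619 in D272Mut. Both mutants lay above WT, and the log2 fold changes were 0.44 ± 0.07 (SE) in GTMut (adjusted p = 8.16e-05) and 0.33 ± 0.07 in D272Mut (adjusted p = 0.00106). An annotated pseudogene shares a near-identical stretch with it, as one does with Eef1b2 and with Eef1g.

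Eef1b2, a gene of the exchange factor that recharges eEF1A, was listed at 12.2, 12.9, 11.6 and 10.1 FPKM in the WT libraries, 26.5, 24.2, 24.9 and 25.4 in GTMut and 27.8, 17.5, 20.1 and 21.4 in D272Mut. The mutants overlapped each other and not WT. Fitted log2 fold changes were 1.05 ± 0.11 (SE) in GTMut (adjusted p = 8.81e-07) and 0.82 ± 0.11 in D272Mut (adjusted p = 1.17e-05). Without WT replicate 4 the GTMut value was 0.99, and the exons of the gene overlap those of Ndufs1 on the opposite strand. Eef1g, its scaffold subunit, rose by 0.77 and 0.79 on the log2 scale, from 6.41 ± 0.476 FPKM in wild type to 11.7 ± 0.785 in GTMut and 12.1 ± 3.54 in D272Mut. Eef1d, the other exchange subunit, fell, with log2 fold changes of -0.26 and -0.40, and shares exons with Naprt on the same strand.

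Eef1e1 fell more than any other factor gene. Its product, also called AIMP3 or p18, is a scaffold of the complex of tRNA synthetases and not an elongation factor in the strict sense. It was listed at 77.2, 73.9, 71.8 and 67.2 FPKM in the WT libraries, 16.7, 13.8, 15.7 and 14.5 in GTMut and 20.7, 21.6, 21.4 and 23.3 in D272Mut. The genotypes did not overlap, with WT highest and GTMut lowest. On the log2 scale the changes were -2.19 ± 0.06 (SE) in GTMut (adjusted p = 5.64e-13) and -1.69 ± 0.06 in D272Mut (adjusted p = 1.09e-11), and D272Mut exceeded GTMut by 0.49 ± 0.06 (adjusted p = 3.55e-05).

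Eef2, which moves the ribosome along the messenger RNA by one codon, fell from 98.6 ± 4.30 FPKM in wild type to 53.1 ± 2.35 in GTMut and 57.2 ± 2.69 in D272Mut, with log2 fold changes of -0.88 and -0.78 (adjusted p = 4.43e-10 and 2.15e-09). Eef2k, the kinase that inactivates eEF2, was listed at 74.3, 74.3, 72.4 and 73.2 FPKM in the WT libraries, 58.4, 56.6, 58.2 and 59.2 in GTMut and 62.3, 65.0, 60.5 and 60.2 in D272Mut. Both mutants lay below WT, and the log2 fold changes were -0.34 ± 0.03 (SE) in GTMut (adjusted p = 5.91e-07) and -0.24 ± 0.03 in D272Mut (adjusted p = 1.66e-05). Eef2kmt, the gene of an eEF2 methyltransferase, was near 1 FPKM and did not pass (0.37 and 0.14), except in GTMut without WT replicate 4 (0.49, adjusted p = 0.0428).

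Compared directly, the 2 mutants shared most levels of these genes to within the spread of the libraries, with 42 of 56 factors not passing, which does not show that they were equal. The genes lower in D272Mut than in GTMut were Eif5a2, Eif1a, Eif4g1, Eif4e, Eif5a, Eif4ebp2 and Eif4b, and those higher were Eif4g3, Eef1e1, Eif6, Eif4a2, Eif4e3, Eif4g2 and Eef2k. For Eif4g1 the log2 difference was -0.42 ± 0.06, for Eif4e -0.25 ± 0.04 and for Eif4b -0.17 ± 0.04 (adjusted p = 8.69e-05, 2.07e-04 and 0.00154). Eif4a2 and Eif4e3 differed by 0.21 ± 0.05 and 0.17 ± 0.03 (adjusted p = 0.00653 and 6.18e-04). The calls of Eef2k, Eif4ebp2 and Eif4g2 between the mutants lay near the threshold and were lost under several alternatives. That of Eef2k (0.09, adjusted p = 0.048) was lost without D272Mut replicate 1 or 2, without any 1 GTMut library and without any 1 WT library (adjusted p up to 0.122). That of Eif4ebp2 (-0.19, adjusted p = 0.0404) was lost without D272Mut replicate 1 or 4, GTMut replicate 1, 2 or 4 or WT replicate 4 (up to 0.116). That of Eif4g2 (0.15, adjusted p = 0.0364) was lost without GTMut replicate 2 or 4 or any 1 D272Mut library (up to 0.102). Eef2k and Eif4ebp2 were also lost with the replicate number as a block (adjusted p = 0.0797 and 0.0765), and Eef2k, Eif4ebp2 and Eif4g2 with only the 8 mutant libraries in the fit (0.0745, 0.0603 and 0.0625). Eif4ebp2 was lost under median-ratio rescaling (adjusted p = 0.0569) and with no filter on low values (0.0607) as well. Eif3b passed with only the 8 mutant libraries in the fit (adjusted p = 0.0343) and Eif4h under quantile normalization (0.039). Other genes passed when 1 library was left out. These were Eef1b2, Eif2b4 and Eif3h without D272Mut replicate 1 (adjusted p = 0.00572, 0.0402 and 0.0275), and Eif1ad and Eif4a3 without D272Mut replicate 3 (0.0337 and 0.0447). Eif2b2 did so without GTMut replicate 4 (0.0328), and Eif3b without WT replicate 4 or GTMut replicate 4 (0.0199 and 0.0375).

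Genes that work with these factors were read from lists of 62 genes, of which 60 were tested. In GTMut 21 of the 60 rose and 26 fell, and in D272Mut 22 rose and 29 fell. Of all tested genes, 38.3% were called higher and 39.2% lower in GTMut, and 36.3% and 39.5% in D272Mut. The count of each list below covers few genes and is to be read against these shares, from which no difference was tested. In the list of mTOR and MNK signalling to initiation, 7 of 13 rose and 4 fell in each mutant. Rptor, the mTORC1 subunit that recruits the 4E-BPs, rose from 1.29 ± 0.227 FPKM in wild type to 32.8 ± 1.53 in GTMut and 32.3 ± 1.40 in D272Mut (log2 fold changes 3.88 and 3.87). Larp1, a repressor of messenger RNAs of ribosomal proteins, rose from 3.01 ± 0.341 FPKM in wild type to 24.6 ± 1.42 in GTMut and 42.7 ± 2.99 in D272Mut (log2 fold changes 2.68 and 3.45). Mknk2, a kinase of eIF4E, rose from 12.6 ± 0.610 FPKM in wild type to 125 ± 6.21 in GTMut and 79.2 ± 4.29 in D272Mut (log2 fold changes 3.21 and 2.56). Mknk1, the other eIF4E kinase gene of the list, named here after its values were seen, fell from 47.4 ± 2.37 FPKM in wild type to 12.6 ± 0.367 in GTMut and 20.9 ± 1.65 in D272Mut (log2 fold changes -1.83 and -1.15). Of these 4 genes, Larp1 was higher in D272Mut than in GTMut and Mknk2 higher in GTMut, and Mknk1 was lower in GTMut (log2 differences 0.77, -0.65 and 0.68, D272Mut against GTMut).

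Among the poly(A)-binding proteins and partners, 1 of 6 tested genes rose and 5 fell in each mutant. The one that rose was Pabpc1, the main cytoplasmic poly(A)-binding protein of somatic cells, from 15.7 ± 1.80 FPKM in wild type to 138 ± 10.2 in GTMut and 105 ± 7.84 in D272Mut (log2 fold changes 3.05 and 2.67). Paip1, which stimulates translation with it, fell from 62.9 ± 4.09 FPKM in wild type to 27.6 ± 0.585 in GTMut and 26.1 ± 1.04 in D272Mut (log2 fold changes -1.16 and -1.24). Paip2b, which inhibits it, fell from 390.0 ± 7.03 FPKM in wild type to 263 ± 5.96 in GTMut and 243 ± 20.1 in D272Mut (log2 fold changes -0.56 and -0.68).

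Of the 5 tested genes of eIF2 phosphorylation, 2 rose and 3 fell in GTMut and 2 rose and 2 fell in D272Mut. Eif2ak3, the kinase PERK of the endoplasmic reticulum, rose from 2.38 ± 0.663 FPKM in wild type to 13.2 ± 0.313 in GTMut and 21.6 ± 0.674 in D272Mut (log2 fold changes 2.09 and 2.76). Eif2ak4, the amino acid sensor GCN2, fell from 7.08 ± 0.654 FPKM in wild type to 3.12 ± 0.332 in GTMut and 2.83 ± 0.249 in D272Mut (log2 fold changes -0.97 and -1.07). Ppp1r15a, a phosphatase subunit that reverses the phosphorylation, went from 57.9 ± 2.72 FPKM in wild type to 34.4 ± 1.99 in GTMut and 51.7 ± 6.87 in D272Mut (log2 fold changes -0.73 and -0.17) and did not pass in D272Mut (adjusted p = 0.0726). Ppp1r15b, the other phosphatase subunit gene of the list, was named after its values were seen. It rose from 48.9 ± 2.55 FPKM in wild type to 74.8 ± 2.37 in GTMut and 79.8 ± 3.42 in D272Mut (log2 fold changes 0.60 and 0.70).

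In termination and ribosome recycling, 6 of 9 genes rose in each mutant, while 1 fell in GTMut and 2 in D272Mut. Abce1, the ATPase that splits the ribosome, rose from 3.81 ± 0.533 FPKM in wild type to 15.8 ± 0.657 in GTMut and 16.2 ± 0.625 in D272Mut (log2 fold changes 1.81 and 1.84). The recycling factor Mcts1 rose from 1.15 ± 0.908 FPKM in wild type to 7.99 ± 2.22 in GTMut and 3.75 ± 1.68 in D272Mut (log2 fold changes 2.12 and 1.15). Pelo, a rescue factor of stalled ribosomes, rose from 34.7 ± 3.81 FPKM in wild type to 72.6 ± 7.46 in GTMut and 69.9 ± 9.71 in D272Mut (log2 fold changes 1.04 and 0.98).

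Of 8 genes for the enzymes that modify eIF5A (hypusine) and eEF2 (diphthamide), 3 rose and 2 fell in GTMut and 3 rose and 3 fell in D272Mut. Dph2, an enzyme of the first diphthamide step, rose from 3.51 ± 0.545 FPKM in wild type to 38.02 ± 1.21 in GTMut and 29.6 ± 1.34 in D272Mut (log2 fold changes 3.12 and 2.77). Dohh, which completes hypusine, rose from 16.6 ± 1.37 FPKM in wild type to 41.8 ± 3.37 in GTMut and 47.7 ± 1.94 in D272Mut (log2 fold changes 1.28 and 1.47). Dph7, a later diphthamide enzyme, fell from 9.68 ± 1.18 FPKM in wild type to 4.46 ± 0.413 in GTMut and 5.77 ± 0.653 in D272Mut (log2 fold changes -0.96 and -0.66).

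Among 6 helicases and other partners, 1 rose and 4 fell in GTMut and 1 rose and 5 fell in D272Mut. Ddx3x, a helicase that aids structured messenger RNAs, fell from 311 ± 14.4 FPKM in wild type to 172 ± 7.61 in GTMut and 183 ± 16.2 in D272Mut (log2 fold changes -0.85 and -0.77). Dhx29, which aids scanning, fell from 9.95 ± 0.627 FPKM in wild type to 5.02 ± 0.359 in GTMut and 6.01 ± 0.127 in D272Mut (log2 fold changes -0.86 and -0.64). Dhx36, which unwinds G-quadruplexes, rose from 6.33 ± 0.596 FPKM in wild type to 12.1 ± 0.483 in GTMut and 13.9 ± 1.29 in D272Mut (log2 fold changes 0.84 and 1.03). Of 11 mitochondrial and selenocysteine factors, 1 rose and 5 fell in GTMut and 2 rose and 6 fell in D272Mut. The mitochondrial elongation factor Gfm1 fell from 10.1 ± 1.16 FPKM in wild type to 4.19 ± 0.419 in GTMut and 4.90 ± 0.566 in D272Mut (log2 fold changes -1.09 and -0.90). Its relative Gfm2, which recycles mitochondrial ribosomes, fell from 10.0 ± 0.741 FPKM in wild type to 5.09 ± 0.313 in GTMut and 5.31 ± 0.675 in D272Mut (log2 fold changes -0.85 and -0.81), and the mitochondrial release factor Mtrf1 from 4.46 ± 0.439 FPKM in wild type to 1.98 ± 0.437 in GTMut and 1.93 ± 0.422 in D272Mut (log2 fold changes -0.88 and -0.91).

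The oocyte partners of eIF4E that the choice of symbols left out both fell. Eif4e1b, an eIF4E relative of the germ line that takes part in repression, fell from 1017 ± 17.3 FPKM in wild type to 679 ± 28.9 in GTMut and 614 ± 43.1 in D272Mut (log2 fold changes -0.58 and -0.73), and its WT level stood above that of each of the 58 factor genes. Eif4enif1, the 4E-T protein that holds eIF4E in repressed particles, fell from 164 ± 4.69 FPKM in wild type to 121 ± 1.51 in GTMut and 108 ± 3.91 in D272Mut (log2 fold changes -0.43 and -0.59). The summed FPKM of the oocyte markers was lower and Nr5a2 was higher in both mutants, as given above, although the oocyte marker Nobox was higher in both. The part of either the sum or Nr5a2 in the changes of the factor genes was not tested.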

How the data were processed

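Oocyte libraries of 3 Marf1 genotypes, 4 each, were grouped by their labels. Going by the submitters' processing notes and the design text, the authors trimmed reads, aligned them to mm10 with TopHat2 2.0.13 and computed FPKM with Cufflinks 2.2.1. FPKM as deposited is scaled to transcript length and to library size, and no strand setting is given in the sources used here, so overlapping genes on opposite strands are read as uncertain. The Cuffdiff statistics of the authors were not used. The header of the deposited table has 1 name too few, so columns were read by position, and 1 line without content was not analysed.

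The members and gene lists were chosen with earlier results of these data known. Genes with at least 1 FPKM in any library (12980) were tested on log2(FPKM + 1) with limma 3.58.1 in R 4.3.3 (all 12 libraries, empirical Bayes with an intensity trend, 9 residual degrees of freedom, two-sided, Benjamini-Hochberg over all tested genes, threshold 0.05). A fold change on this scale understates that of low genes. The script was tested on simulated data. A second rule asked for a log2 fold change of at least 1 in size. Values in every library were given for members past both rules in any comparison and for the most abundant of each role. Up to 3 genes were named per pathway list by size of change, and Mknk1 and Ppp1r15b were added after their values were seen. Values after ± are SD (n = 4) for FPKM and shares, and SE for log2 fold changes.

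Alternatives were pseudocounts of 0.1 and 0.5, no filter, a mean of at least 5 FPKM, median-ratio rescaling, quantile normalization, only the 8 libraries compared, a replicate block and each library left out. Summing Eif3j1 and Eif3j2 was chosen after seeing the data, as was splitting Nr5a2 from its marker list. Positions, coding sequences and shared stretches (at least 150 bases at 98% identity, found for 14 members) come from GENCODE M21, where 12 members overlap exons of another tested gene, and the deposited locus of 57 of 58 members overlapped the annotated gene. Overlaps not named with the values are those of Eef2kmt (Alg1), Eif3j1 (Spg11), Eif3m (Ccdc73) and Eif5b (Rev1) on the opposite strand and Eif5 (Snora28) on the same strand. An annotated pseudogene also shares such a stretch with each of Eif1, Eif2s2, Eif2s3x, Eif3m and Eif4e. Plots were made in Python 3.11.15 (matplotlib 3.10.9).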

Additional observations from a re-analysis of the deposited data

Results flagged for a closer look

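In 13 of 168 groups of 4 libraries, 1 library lay far from the other 3 by Dixon's criterion on FPKM, a criterion that chance meets in about 1 of 20 groups. The highest library stood apart for Eef1a1 in WT replicate 1 (464, group 438 to 464), Eif1a in D272Mut replicate 2 (58.3, group 44.8 to 58.3), Eif2a in WT replicate 4 (9.11, group 7.16 to 9.11), Eif4e2 in WT replicate 2 (8.03, group 6.68 to 8.03) and Eif4ebp1 in D272Mut replicate 4 (11.6, group 7.15 to 11.6). The lowest library stood apart for Eif2d in D272Mut replicate 3 (5.42, group 5.42 to 6.68), Eif3a in GTMut replicate 4 (25.6, group 25.6 to 28.0), Eif3e in GTMut replicate 2 (3.34, group 3.34 to 5.00) and Eif4a2 in GTMut replicate 2 (28.9, group 28.9 to 32.2). It also did for Eif4a3 in WT replicate 4 (35.5, group 35.5 to 37.96), Eif4b in GTMut replicate 4 (99.1, group 99.1 to 105), Eif4e in GTMut replicate 4 (109, group 109 to 117) and Eif5 in WT replicate 4 (87.5, group 87.5 to 97.8). WT replicate 4 and GTMut replicate 4 each account for 3 of them. The values of Eif1a, Eif3a, Eif4e2 and Eif4ebp1 still lie on the same side of the other genotype's libraries as the rest of their group in each mutant against WT.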

How the results depend on the processing

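No count of factor genes moved by more than 1.5 times under any alternative, and no called factor changed direction. The uncalled value of Eif3j2 turned positive, to 0.69 in GTMut and 0.96 in D272Mut when Eif3j1 and Eif3j2 were summed as 1 gene. Leaving out each library in turn gave 19 to 21 higher, 26 to 26 lower and 10 to 11 changed 2-fold in GTMut, 18 to 19, 24 to 26 and 8 to 10 in D272Mut, and 5 to 7, 6 to 9 and 1 to 1 between the mutants. With a pseudocount of 0.1, 12 factors changed at least 2-fold in GTMut and 11 in D272Mut, and with 0.5, 12 and 9. Quantile normalization moved the median log2 fold change of all genes to -0.23 in GTMut and -0.25 in D272Mut, and the share of higher genes among those called to 39.2% and 37.4%. With it 19 factors were higher and 30 lower in GTMut and 19 and 29 in D272Mut, so the split of higher and lower calls holds only relative to that shift. Over the 3 comparisons, the one between the mutants included, 13 calls were gained and 3 lost. Median-ratio rescaling gave 19 and 26 in GTMut and 20 and 23 in D272Mut. With only the 8 libraries compared, 19 factors were higher and 24 lower in D272Mut, and with no filter on low values 18 and 24. With the replicate number as a block, 19 rose and 26 fell in GTMut, 18 and 25 in D272Mut, and 6 and 6 differed between the mutants. Libraries of the same number did not deviate together (correlations -0.36 to 0.09 over 12 pairs, and 7 of 24 comparisons best with their own number). This check cannot tell whether the samples were matched by number, since a matching need not show in these values. Depth cannot be given in reads, which limits what is known of low factors such as Eif4ebp3 and Eef2kmt, near 1 FPKM in WT, and Eif5a2, at 0.107 FPKM in WT.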
